A study of Mus musculus with 6 samples.

Results

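The mitochondrial ribosomal protein genes were taken as all gene symbols of the deposited table that consist of Mrpl or Mrps, a number and at most 1 further letter. This gave 78 genes, 49 with an Mrpl and 29 with an Mrps symbol, of 23381 rows in the table. A further 4 rows with a -ps suffix, which marks pseudogenes, were left out. RNA came from mammary tumours of Balb/c mice labelled as 10 weeks old. The tumours were grown from 500000 cells of 4T1, a mouse mammary carcinoma line, injected into the inguinal mammary fat pad. Once tumours were established, all mice were dosed 3 times a week for 3 weeks. Controls received the vehicle DMSO, and treated mice received 2 mg of Vismodegib per mouse, an inhibitor of Smoothened, the membrane protein that relays Hedgehog signals. Each group had 3 libraries of tumour RNA. Whether every library is a separate animal is not stated by the labels, and p-values here cover only the spread between these samples. In such bulk tissue, fewer cells of a type and less RNA per cell cannot be told apart.

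Mitochondria carry their own ribosome, which makes only the membrane proteins that the mitochondrial genome encodes. Its ribosomal RNAs come from that genome, whereas all of its proteins are encoded in the nucleus, made in the cytosol and imported. Some of these proteins descend from bacterial ribosomal proteins and others were added in the course of mitochondrial evolution. The symbols do not always give the subunit: Mrps30 and Mrps18a encode proteins of the large subunit, and the Mrps36 product is now assigned to the oxoglutarate dehydrogenase complex. The genes were therefore split into the small subunit with 16 proteins that have a bacterial homologue and 10 that do not, and the large subunit with 30 that do and 21 that do not. Mrps36 was left in neither. Mrps18a and Mrps18b, paralogues of Mrps18c from the same bacterial ancestor, were counted among the proteins without a homologue, because they sit at places that have no counterpart in bacteria.

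The 78 genes are spread over 17 chromosomes, and what their promoters share was read from the RefSeq windows of the GRCm38.p6 build, which run from 250 bases before to 50 bases after each gene's start. Windows were found for 69 of the 78 genes. The searched motifs were GCGCA, any base and GCGC for NRF1, CCGGAAG for ETS factors such as GABPA, AAGATGGC for YY1 and CACGTG, the E-box of MYC and USF, on both strands. NRF1, GABPA and YY1 are known regulators of nuclear genes for mitochondria. The ETS letters occurred in 26 of the 69 genes (37.7%), against 20.7% of the 8838 genes tested here that have a window and 8.86% of all 32851 windows. The YY1 letters occurred in 12 genes (17.4%, against 5.5% of the tested genes and 2.75% of all windows) and the NRF1 letters in 13 (18.8%, against 11.9% and 4.6%). The E-box occurred in 5 genes (7.25%, against 11.8% and 7.15%). No ETS match overlapped a YY1 match in these windows. A match is a description of the letters and not of a bound site.

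The following 5 windows show these arrangements. They are Mrpl52, the gene with the highest level and a pair of ETS matches (chr14:54426659-54426958, plus strand), Mrps21 with an NRF1 and an ETS match (chr3:95871465-95871764, minus strand), Mrps12, which starts 172 bases from the oppositely directed Sars2 (chr7:28741772-28742071, minus strand), Mrps18a with an ETS and a YY1 match (chr17:46110754-46111053, plus strand), and Mrpl33, the gene with the largest difference between the groups (chr5:31613701-31614000, plus strand). Each is written 5′ to 3′ in the direction of the gene, with motif matches in capitals. The RefSeq start of Mrpl33 lies inside the longer GENCODE gene given with its values.
Mrpl52: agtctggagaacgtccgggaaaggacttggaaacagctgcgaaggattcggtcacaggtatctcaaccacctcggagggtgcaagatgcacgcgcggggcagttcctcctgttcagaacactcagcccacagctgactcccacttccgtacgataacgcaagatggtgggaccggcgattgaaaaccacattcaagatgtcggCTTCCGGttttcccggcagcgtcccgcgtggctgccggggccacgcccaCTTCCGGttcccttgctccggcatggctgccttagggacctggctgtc
Mrps21: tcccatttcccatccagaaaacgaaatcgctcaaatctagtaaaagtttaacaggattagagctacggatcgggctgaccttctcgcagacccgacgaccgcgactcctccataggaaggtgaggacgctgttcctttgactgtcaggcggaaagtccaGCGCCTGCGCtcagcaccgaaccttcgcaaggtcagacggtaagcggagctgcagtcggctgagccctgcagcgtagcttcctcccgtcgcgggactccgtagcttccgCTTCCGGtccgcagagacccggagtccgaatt
Mrps12: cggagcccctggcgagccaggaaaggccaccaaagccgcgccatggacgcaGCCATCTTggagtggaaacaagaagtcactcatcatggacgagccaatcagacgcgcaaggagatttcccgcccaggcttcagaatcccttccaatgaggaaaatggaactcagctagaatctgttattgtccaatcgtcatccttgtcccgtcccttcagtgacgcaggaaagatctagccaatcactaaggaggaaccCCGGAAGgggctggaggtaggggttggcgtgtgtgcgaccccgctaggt
Mrps18a: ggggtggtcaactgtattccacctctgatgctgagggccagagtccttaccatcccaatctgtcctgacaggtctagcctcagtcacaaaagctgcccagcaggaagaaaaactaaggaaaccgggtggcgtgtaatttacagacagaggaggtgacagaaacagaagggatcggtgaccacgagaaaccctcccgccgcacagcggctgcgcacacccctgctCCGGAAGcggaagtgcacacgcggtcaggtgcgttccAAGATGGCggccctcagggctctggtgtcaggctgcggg
Mrpl33: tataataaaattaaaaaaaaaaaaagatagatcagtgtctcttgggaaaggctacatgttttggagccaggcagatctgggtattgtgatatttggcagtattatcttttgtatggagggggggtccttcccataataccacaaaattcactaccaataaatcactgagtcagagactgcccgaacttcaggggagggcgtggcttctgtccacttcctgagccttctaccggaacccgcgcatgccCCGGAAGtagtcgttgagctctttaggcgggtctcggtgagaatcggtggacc

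A shared start region was also common. In the GENCODE M21 annotation of GRCm38, 23 of the 78 genes (29.5%) had a protein-coding gene in the opposite direction whose start lay within 1000 bases upstream, or overlapped by up to 200 bases. Of all 10671 protein-coding genes tested, 12.4% had such a neighbour. Mrps12 encodes a protein of the decoding centre, and its neighbour Sars2 encodes the mitochondrial seryl-tRNA synthetase. Mrps12 was at 12.8, 33.8 and 15.5 RPKM in the controls against 17.7, 15.3 and 23.9 RPKM in the treated tumours. RPKM are reads scaled to the length of the gene and to the depth of the library, and libraries are always given in the order of their replicate numbers, DMSO before Vismodegib. Sars2 was at 2.02, 2.47 and 1.69 RPKM in the controls against 1.65, 1.51 and 2.82 RPKM in the treated tumours. The mean levels of this pair were thus 19.8 and 2.03 RPKM, and the library with the highest value was DMSO replicate 2 for Mrps12 and Vismodegib replicate 3 for Sars2. Over all such pairs, DMSO replicate 2 was the highest library for 15 of the 23 mitochondrial ribosomal genes and for 13 of the 20 partners that were tested, against 29.8% of all genes. Other such pairs joined Mrpl49 at 21.3 RPKM to Fau at 5650 RPKM, a gene of the cytosolic ribosome, Mrpl36 at 22.6 RPKM to Ndufs6 at 122 RPKM, a subunit of respiratory complex I, and Mrpl32 at 2.14 RPKM to Psma2 at 25.6 RPKM, a proteasome subunit. These pairs were picked for their neighbours after the values were seen.

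Levels of the 78 genes differed far more between genes than between tumours. Each of the 78 reached the limit for testing, a 6-library mean of 0.5 RPKM. Means ran from 1.39 RPKM for Mrps22 to 231 RPKM for Mrpl52, a 166-fold range, with a median of 16.5 RPKM and quartiles of 7.63 and 29.8 RPKM. In contrast, the highest library of a gene exceeded its lowest by a median of 1.83 times. The order of the genes was nearly the same in every tumour, with Spearman correlations across the 78 genes of 0.92 to 0.99 between libraries. The median level was 18.3 RPKM for small and 18.3 RPKM for large subunit proteins with a bacterial homologue, and 12.0 and 13.4 RPKM for those without. The depth behind these values was 34800000 to 58000000 reads per library, as recovered from the steps of the low values. With the longest annotated transcript as length, the gene with the fewest reads, Mrpl3, rested on 112 in its lowest library, and the median over genes and libraries was 1144.

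**Figure D1:**
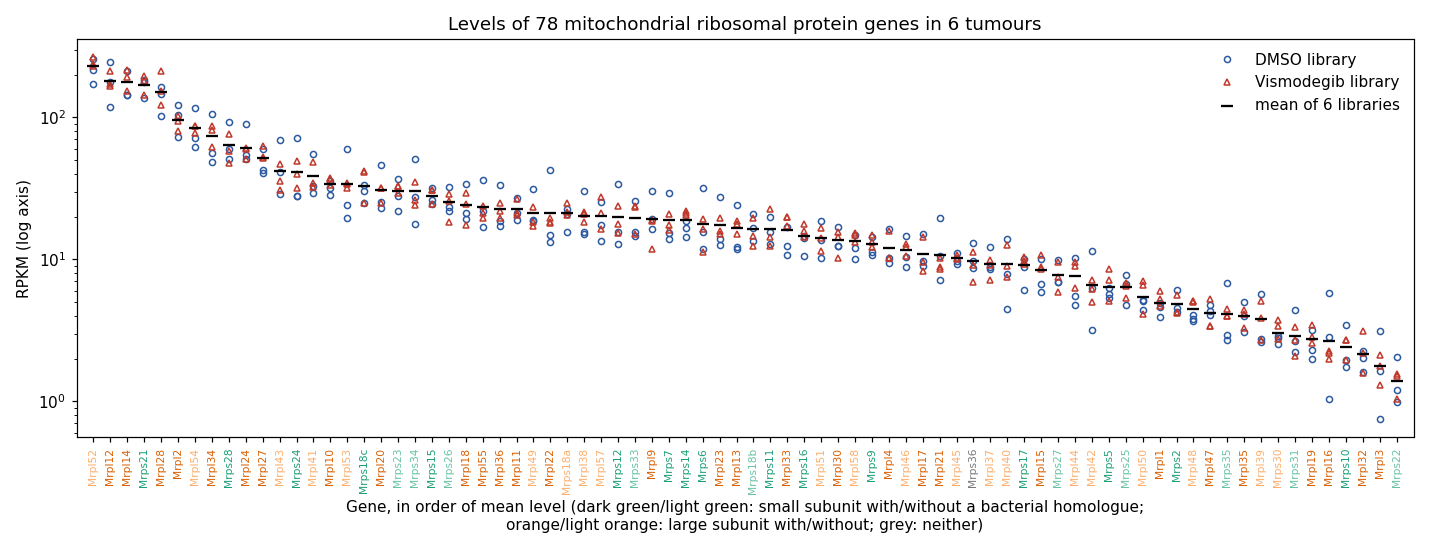
RPKM on a log axis of each of the 78 genes in the 3 DMSO (circles) and 3 Vismodegib (triangles) libraries, with the mean as a bar, ordered by mean. Means span 1.39 to 231 RPKM, and 5 genes lie above 100 RPKM.

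The 5 genes above 100 RPKM were Mrpl52, Mrpl12, Mrpl14, Mrps21 and Mrpl28. Mrpl52, a large subunit protein without a bacterial homologue (ENSMUSG00000010406.12, chromosome 14, 54426909 to 54429756, plus strand), was at 171, 258 and 217 RPKM in the controls against 239, 232 and 267 RPKM in the treated tumours. The DMSO values spanned the lower 2 of the treated libraries, and the highest value was in Vismodegib replicate 3. Mrpl12, the protein of the ribosomal stalk to which translation factors bind (ENSMUSG00000039640.7, chromosome 11, 120484613 to 120489065, plus strand), was at 179, 245 and 118 RPKM in the controls against 173, 166 and 214 RPKM in the treated tumours. Its highest and its lowest value were both in DMSO libraries. Mrpl14, which lies at the interface between the subunits, was at 144, 211 and 144 RPKM in the controls against 192, 154 and 215 RPKM in the treated tumours. Mrps21 was at 178, 184 and 137 RPKM against 179.6, 145 and 196 RPKM, and Mrpl28 at 147, 165 and 103 RPKM against 154, 122 and 214 RPKM. In all 5 genes the groups overlapped.

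At the other end were Mrps22, Mrpl3 and Mrpl32. Mrps22, a small subunit protein without a bacterial homologue, was at 0.99, 2.06 and 1.20 RPKM in the controls against 1.56, 1.51 and 1.04 RPKM in the treated tumours. Mrpl3, a core protein of the large subunit, was at 0.750, 3.11 and 1.63 RPKM in the controls against 1.78, 2.13 and 1.30 RPKM in the treated tumours. Mrpl32, a large subunit protein that a mitochondrial protease matures, was at 1.62, 2.25 and 2.03 RPKM in the controls against 2.19, 3.14 and 1.58 RPKM in the treated tumours. For Mrps22 and Mrpl3 the range of the controls enclosed all treated libraries.

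Level went with the length of the transcript. Across the 78 genes, the log2 mean level and the log2 length of the longest annotated transcript had a Pearson correlation of -0.69, and the level and GC content one of 0.60. These values share the annotation, and RPKM divides by a length that the authors' table does not give. Across all tested genes with an annotated length, level and length had a correlation of -0.32. The median length was 1866 bases for the 78 genes and 3020 bases for all genes tested.

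The Mrps18 paralogues offer a comparison of related proteins. Mrps18c, of the small subunit, was at 30.2, 33.5 and 25.1 RPKM in the controls against 41.2, 42.3 and 25.0 RPKM in the treated tumours. Mrps18a, of the large subunit, was at 20.9, 22.8 and 15.7 RPKM against 25.0, 20.4 and 21.6 RPKM. Mrps18b, of the small subunit, was at 13.4, 21.0 and 16.6 RPKM against 19.5, 14.7 and 12.4 RPKM. Mrps18c exceeded both others in every library. Mrps18a exceeded Mrps18b in 5 libraries, and in DMSO replicate 3 it was the lower of the pair. The fitted differences were 0.26 (SE 0.290) for Mrps18c, 0.18 (SE 0.255) for Mrps18a and -0.13 (SE 0.285) for Mrps18b on the log2 scale, and the groups overlapped in all 3.

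Vismodegib against DMSO, the single comparison of the design, asked what inhibition of Smoothened did to tumour RNA. For the mitochondrial ribosome it showed no called gene: 0 of 78 genes passed limma at an adjusted p of 0.05, where 0 of all 11818 genes tested passed (0%). At an unadjusted p under 0.05, 0 of the 78 passed, against 266 of all genes (2.25%). Differences are given as Vismodegib minus DMSO on log2(RPKM + 0.5), which understates the change of low genes. They ran from -0.39 for Mrpl9 to 0.51 for Mrpl33, with a median of 0.05, the same as the 0.05 of all genes tested. Of the 78, 47 lay above 0, against 58.4% of all genes, and this split followed the scaling. With median-ratio scaling 35 lay above 0 and with quantile scaling 39, and the median turned to -0.014 and -0.001. The median of all genes turned as well, to -0.005 and -0.017, and the share of all genes above 0 was not counted in these settings. The 95% interval lay within 1 log2 unit either side of 0 for 68 of the 78 genes, and the widest bounds over all 78 were -1.30 and 1.15. For low genes, 1 unit on this scale is more than 2-fold in RPKM. The share of all genes with such an interval was not counted.

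**Figure D2:**
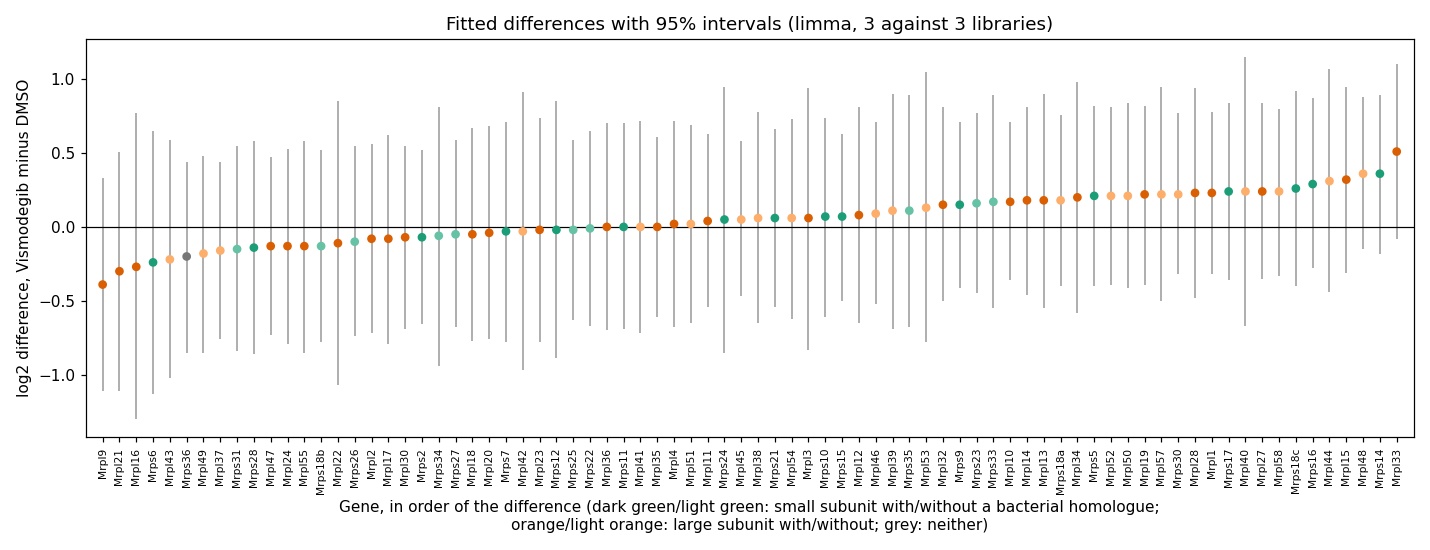
Fitted log2 difference between Vismodegib and DMSO for each of the 78 genes with its 95% interval from limma, ordered by size and coloured by subunit and origin. All 78 intervals include 0, and the points run from -0.39 to 0.51.

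The largest positive differences were in Mrpl33, Mrpl48 and Mrps14, and in these 3 genes all treated libraries lay above all controls. Mrpl33, a large subunit protein with a bacterial homologue (ENSMUSG00000106918.3, chromosome 5, 31596935 to 31664384, plus strand), was at 16.9, 10.8 and 12.5 RPKM in the controls against 19.98, 17.2 and 19.8 RPKM in the treated tumours. The gap was narrow, since DMSO replicate 1 lay just below Vismodegib replicate 2. Its difference of 0.51 (SE 0.260), a fold of 1.42, had an unadjusted p of 0.083 and an adjusted p of 1 by limma. Mrpl48, a large subunit protein without a bacterial homologue (ENSMUSG00000030706.17, chromosome 7, 100545751 to 100608301, minus strand) read 4.06, 3.67 and 3.78 RPKM in the controls against 5.03, 5.13 and 5.08 RPKM in the treated tumours, with a difference of 0.36 (SE 0.227). Both groups were tight here, with 3.84 ± 0.200 RPKM in the controls and 5.08 ± 0.0482 RPKM in the treated tumours (SD over n = 3 libraries each). The unadjusted p of Mrpl48 was 0.144 by limma, larger than that of Mrpl33. Mrps14, a small subunit protein with a bacterial homologue (ENSMUSG00000058267.13, chromosome 1, 160195215 to 160202170, plus strand), was at 16.6, 18.6 and 14.3 RPKM in the controls against 21.8, 21.1 and 20.6 RPKM in the treated tumours, with a difference of 0.36 (SE 0.235). The unadjusted p of Mrps14 was 0.164 by limma.

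These 3 of 78 genes with all treated libraries above stand beside 4.29% of all genes tested, and 0 of 78 with all treated libraries below stand beside 0.745%. The set changed with the scaling. With median-ratio scaling none of the 78 had all treated libraries above and Mrpl9 had all below, against 2.83% and 2.41% of all genes. With each library divided by its RPKM sum, Mrpl27, Mrpl48 and Mrps14 lay above and Mrpl9 below, against 2.89% and 2.09%. With quantile scaling only Mrps14 lay above and none below, against 2.93% and 2.97%. After removal of GC and length trends only Mrpl27 lay above, while Mrpl9 and Mrps36 lay below, against 3.35% and 3.05%.

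Mrpl15 and Mrpl44 completed the 5 largest positive differences. Mrpl15, a core large subunit protein, was at 10.0, 6.75 and 5.86 RPKM in the controls against 8.82, 8.52 and 10.7 RPKM in the treated tumours, a difference of 0.32 (SE 0.277). Mrpl44, which has the fold of an RNase III enzyme, was at 5.54, 10.2 and 4.77 RPKM in the controls against 9.61, 9.01 and 6.29 RPKM in the treated tumours, a difference of 0.31 (SE 0.333). In both, 1 DMSO library reached the treated range: replicate 1 for Mrpl15 and replicate 2 for Mrpl44.

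The lowest differences were in Mrpl9, Mrpl21, Mrpl16, Mrps6 and Mrpl43. Mrpl9, at the base of the L1 stalk of the large subunit (ENSMUSG00000028140.13, chromosome 3, 94443318 to 94451130, plus strand), was at 16.5, 30.2 and 19.2 RPKM in the controls against 18.9, 18.5 and 11.9 RPKM in the treated tumours, a difference of -0.39 (SE 0.317). Mrpl21 was at 7.20, 19.6 and 10.5 RPKM in the controls against 10.3, 8.90 and 8.53 RPKM in the treated tumours. Mrpl16 was at 1.04, 5.76 and 2.82 RPKM against 2.26, 2.19 and 1.99 RPKM. In all 3 genes DMSO replicate 2 was the highest library by a wide margin. Mrps6, a homologue of bacterial S6, was at 11.8, 31.9 and 15.7 RPKM against 16.3, 19.4 and 11.3 RPKM. Mrpl43, whose exons overlap those of Twnk on the other strand, was at 28.7, 69.0 and 41.1 RPKM against 35.6, 31.0 and 47.1 RPKM. Without DMSO replicate 2 the differences of Mrpl21, Mrpl16, Mrps6 and Mrpl43 turned positive, to 0.07, 0.22, 0.16 and 0.12, and that of Mrpl9 was -0.14.

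By subunit and origin, none of the lists held a called gene. In the small subunit, the 16 proteins with a bacterial homologue had a median difference of 0.06, with 11 above 0, and the 10 without had a median of -0.03, with 3 above 0. In the large subunit, the 30 with a homologue had a median of 0.01, with 16 above 0, and the 21 without had a median of 0.11, with 17 above 0. All genes tested had a median of 0.05. Mrps36, which was put in none of these lists, had a difference of -0.20, with its highest value in DMSO replicate 2. The difference between these lists was not tested.

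Most of the genes shared their highest library, which was 1 of the controls. DMSO replicate 2 was the highest of the 6 libraries for 51 of the 78 genes (65.4%), against 29.8% of all genes tested. Among the controls alone it was the highest for 69 of the 78, against 43.3% of all genes. The median deviation from the gene's mean was 0.40 in this library on the log2 scale. It was -0.24 in DMSO replicate 1 and -0.21 in DMSO replicate 3, and 0.11, -0.02 and 0.03 in Vismodegib replicates 1, 2 and 3. Over all genes tested the medians ran from -0.16 to 0.18, with 0.04 in DMSO replicate 2. The SD was larger in DMSO than in Vismodegib for 63 of the 78 genes (80.8%), against 64.8% of all genes, with median SDs of 0.38 and 0.22. Over all genes tested the median SDs were 0.38 and 0.28. The median SD among controls was thus the same in both sets, though their median levels differed, at 16.5 RPKM for the 78 genes and 3.96 RPKM for all genes. The share with a larger SD in DMSO was 82% for nuclear genes of oxidative phosphorylation and 77.8% for cytosolic ribosomal protein genes. Their median SDs in DMSO were 0.42 and 0.51. For 39 of the 78 genes, the range of the controls enclosed all 3 treated tumours, against 35% of all genes.

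**Figure D3:**
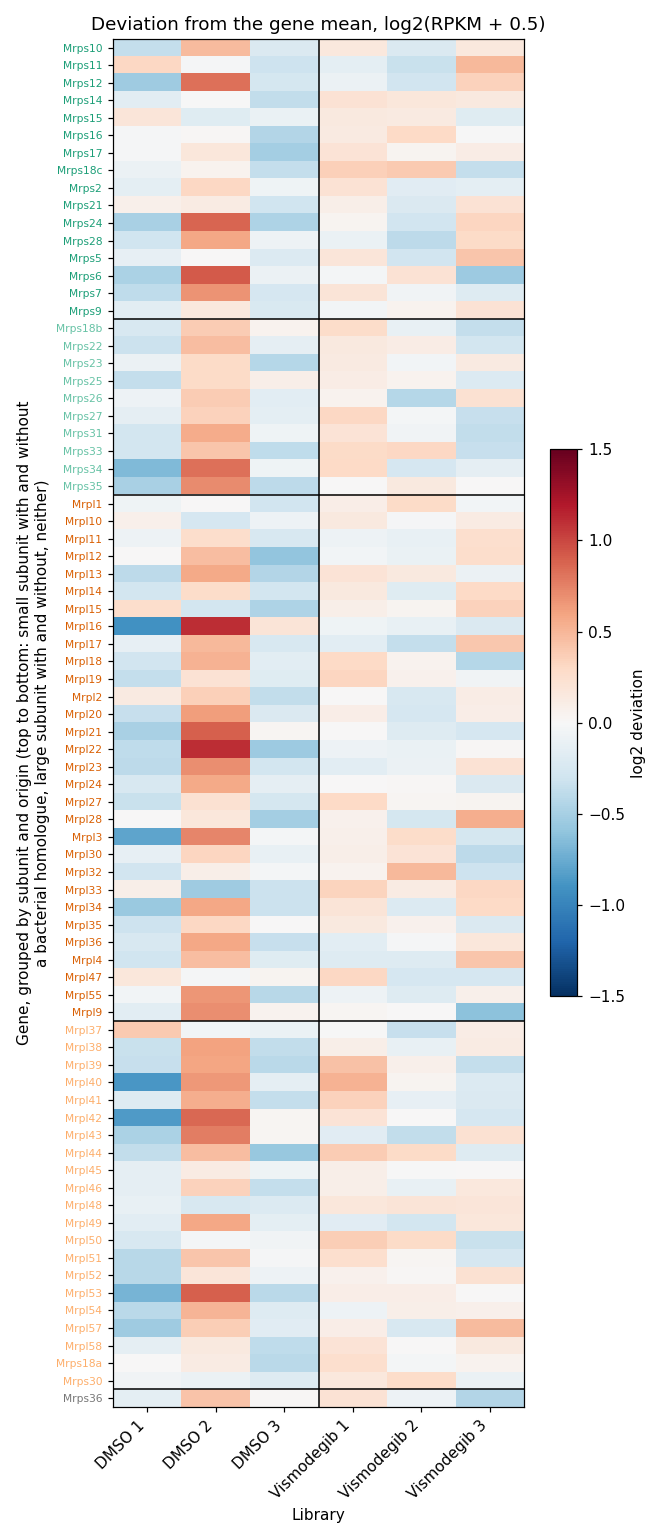
Deviation of each library from the gene's mean on log2(RPKM + 0.5) for the 78 genes, grouped by subunit and origin. The column of DMSO replicate 2 is red for most genes, with a median of 0.40, and the columns of DMSO replicates 1 and 3 are mostly blue.

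The excess in DMSO replicate 2 over the mean of the other 2 controls had a median of 1.55-fold over the 78 genes, against 1.07-fold over all genes tested. The following examples were chosen after the values were seen. Mrpl22, at the exit of the peptide tunnel, had the largest excess at 3.05-fold, with 14.8, 42.5 and 13.2 RPKM in the controls and 18.4, 18.1 and 19.7 RPKM in the treated tumours. Mrpl53 was at 19.5, 59.9 and 24.0 RPKM in the controls against 34.3, 34.1 and 32.0 RPKM in the treated tumours, so the treated libraries were nearly equal and lay between the controls. Mrps24 was at 27.8, 71.9 and 28.1 RPKM in the controls, and Mrps34 was at 17.9, 51.1 and 27.4 RPKM. All 10 small subunit proteins without a bacterial homologue, Mrps34 among them, were highest in DMSO replicate 2. Of the 16 small subunit proteins with one, 7 were, as were 20 of 30 and 13 of 21 in the large subunit.

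Some genes went the other way. Mrpl10, Mrpl33, Mrpl48 and Mrps15 had their lowest value in DMSO replicate 2. Mrpl10, which anchors the stalk, was at 35.8, 28.3 and 32.0 RPKM in the controls against 37.5, 33.6 and 37.0 RPKM in the treated tumours. Mrps15 was at 31.8, 24.7 and 26.1 RPKM against 31.0, 30.7 and 24.7 RPKM. Mrpl33 and Mrpl48, which had 2 of the largest differences between the groups, belong to this set.

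The size of the excess depended on the scaling. The median deviation in DMSO replicate 2, 0.40 as deposited, was 0.35 with median-ratio scaling, 0.27 with quantile scaling, 0.29 after removal of GC and length trends and 0.18 with division by the RPKM sum, where all genes stood at 0.00, 0.02, 0.05 and -0.14. DMSO replicate 2 was the highest library for 46 of the 78 genes with median-ratio scaling, 43 with quantile scaling and 44 after removal of each library's GC and length trends, and for 33 when each library was divided by its RPKM sum. All genes stood at 28.6%, 29%, 32.3% and 18.2% in these settings. The RPKM values summed to 432898 in DMSO replicate 2 and to 324967 to 385764 in the others, and the 78 genes made up 0.622%, 0.701% and 0.554% of the sum in DMSO and 0.636%, 0.58% and 0.701% in Vismodegib. In this summed share, Vismodegib replicate 3 thus reached the same value. The 7 highest genes held 46.2% of the summed mean levels. Gene by gene, with division by the RPKM sum, the median deviation was 0.18 in DMSO replicate 2 and 0.04 in Vismodegib replicate 3. The highest library was DMSO replicate 2 for 33 genes and Vismodegib replicate 3 for 17. The genes highest in DMSO replicate 2 had a median transcript length of 1424 bases, and the others 2596 bases. Across the 78 genes, the deviation in this library had a Pearson correlation of -0.26 with log2 length and 0.26 with GC content. Genes with and without an ETS match were highest there in 16 of 26 and 28 of 43 cases. The counts were 8 of 13 and 36 of 56 for NRF1, 8 of 12 and 36 of 57 for YY1, and 3 of 5 and 41 of 64 for the E-box.

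Without DMSO replicate 2, 72 of the 78 differences lay above 0, and the median was 0.274 against 0.090 for all genes. Of the 78, 1 gene then had an unadjusted p under 0.05 by limma, while 0 passed with adjustment. The share of all genes above 0, or under that p, was not counted in this setting. Without DMSO replicate 1 or DMSO replicate 3, 33 lay above 0, with medians of -0.089 and -0.061, against -0.006 and 0.077 for all genes.

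Sums of cell type markers also differed between the libraries, and not all were highest in DMSO replicate 2. The summed RPKM of 8 markers of dividing cells was 79.2, 192 and 128 in DMSO and 113, 116 and 107 in Vismodegib, highest in DMSO replicate 2 and lowest in DMSO replicate 1. The sum of 8 skeletal muscle markers was 16.9, 126 and 9.25 in DMSO and 128, 91.8 and 66.9 in Vismodegib. The sum of 8 adipocyte markers was 16.1, 15.9 and 7.86 in DMSO and 96.7, 74.1 and 11.3 in Vismodegib, with Pck1, Lep and Adipoq at 0 in some libraries. Sums of 8 fibroblast markers were 62.2 to 77.5 in DMSO and 75.3 to 184 in Vismodegib, those of 8 macrophage markers 1088 to 1970 and 734 to 2532, and those of 8 T cell markers 12.0 to 16.7 and 10.8 to 15.6. Sums of 8 neutrophil markers were 24.4 to 217 and 15.5 to 107, with Ly6g and Camp at 0 in DMSO replicate 2 and Vismodegib replicate 3, and Mmp8 at 0 in the latter. The 8 epithelial markers, which the label of a mammary carcinoma calls for, were present in all libraries and summed to 1628, 2479 and 2768 in DMSO and 2522 to 2668 in Vismodegib. The part of these cells in the values of the mitochondrial ribosomal genes was not tested.

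Related families were highest in DMSO replicate 2 to different degrees. Of 81 cytosolic ribosomal protein genes, 63 were highest in DMSO replicate 2, with a median deviation of 0.53 there. Of 100 nuclear genes of oxidative phosphorylation, 56 were, with a median deviation of 0.35. The 13 proteins encoded by the mitochondrial genome, which the mitochondrial ribosome translates, went the opposite way. None was highest and 10 were lowest in DMSO replicate 2, where their median deviation was -1.35. All 13 differences lay above 0, with a median of 0.915. This median was 0.438 without DMSO replicate 2, 0.581 without Vismodegib replicate 1 and 0.585 after removal of GC and length trends. In the main fit and in these settings 0 passed the adjusted threshold. With library weights some of them passed, as given in the closing section. The smallest p was that of mt-Nd3, a subunit of complex I, which was at 623, 222 and 343 RPKM in the controls against 1216, 878 and 655 RPKM in the treated tumours. Its groups did not overlap, and its difference of 1.29 (SE 0.417) had an unadjusted p of 0.0133 and an adjusted p of 1 by limma. The differences between families were not tested.

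**Figure D4:**
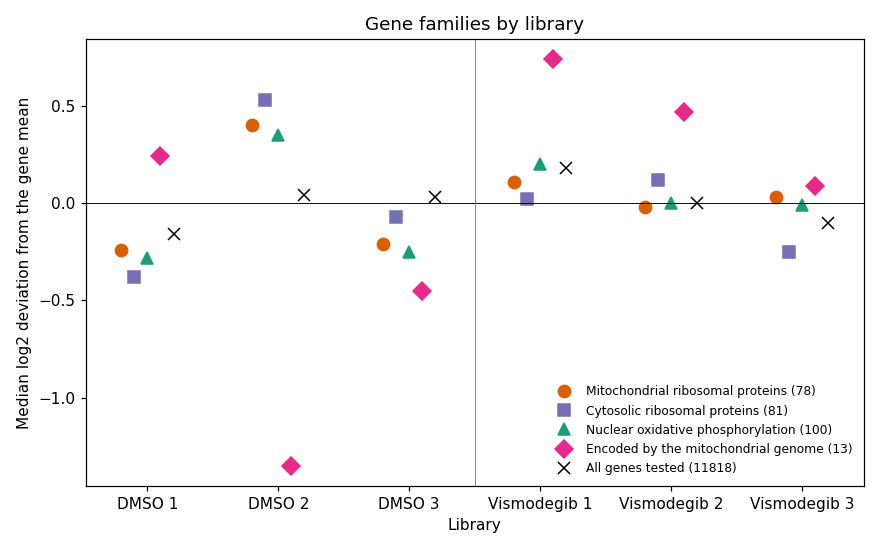
Median log2 deviation from the gene's mean in each of the 6 libraries for the mitochondrial ribosomal genes, 3 related families and all genes tested. In DMSO replicate 2 the mitochondrial ribosomal genes stand at 0.40 and the genes of the mitochondrial genome at -1.35.

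Other genes of mitochondrial translation gave no call either. Among 5 tested proteins of the mitochondrial ribosome with other symbols, 0 passed and the median difference was 0.13. Of these, Chchd1 was at 49.2 ± 14.5 RPKM in the controls and 57.2 ± 4.84 RPKM in the treated tumours, Gadd45gip1 at 62.6 ± 6.53 and 69.2 ± 4.90 RPKM, and Dap3 at 12.0 ± 2.94 and 10.7 ± 0.760 RPKM (SD over n = 3 libraries each). Of 11 tested translation factors, 0 passed and 5 lay above 0. The initiation factor Mtif3 had a difference of 0.31, the elongation factor 4 homologue Guf1 0.34 and the elongation factor Gfm1 -0.28. Guf1 was lowest and Gfm1 highest in DMSO replicate 2. Of 21 tested assembly factors, 0 passed and 11 lay above 0. Fastkd2, an RNA-binding protein needed for the large ribosomal RNA, was at 1.45, 1.29 and 0.770 RPKM in the controls against 2.24, 1.82 and 1.68 RPKM in the treated tumours. Its groups did not overlap, and its difference of 0.55 (SE 0.268) had an unadjusted p of 0.0704 and an adjusted p of 1 by limma. The rRNA methyltransferase Mrm3 and the helicase Ddx28 had differences of -0.47 and -0.55, and both were highest in DMSO replicate 2. Mrm3 was at 4.26, 9.45 and 5.51 RPKM in the controls against 3.38, 4.11 and 5.49 RPKM in the treated tumours. Ddx28 was at 5.51, 19.0 and 11.2 RPKM against 6.30, 7.59 and 7.42 RPKM. Nsun4, at 0.446 RPKM, was too low to be tested.

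Of 19 tested mitochondrial aminoacyl-tRNA synthetases and related enzymes, 0 passed and 8 lay above 0, with a median of -0.05. Their levels were low, with a median of 2.03 RPKM. Qrsl1, a subunit of the enzyme that forms glutaminyl-tRNA in mitochondria, had a difference of -0.51, Aars2 of -0.33 and Wars2 of -0.21. Qrsl1 and Aars2 were highest in DMSO replicate 2, and Wars2 in DMSO replicate 3. Mars2, at 0.165 RPKM, was too low to be tested. Of 11 genes for the upkeep and transcription of mitochondrial DNA, 0 passed and 6 lay above 0. Slirp, which stabilises mitochondrial mRNA, was at 16.2, 14.5 and 15.8 RPKM in the controls against 20.6, 19.8 and 17.8 RPKM in the treated tumours, without overlap, a difference of 0.31. Mterf1a and Tfb2m had differences of 0.47 and 0.45, and both were lowest in DMSO replicate 2.

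Among regulators of mitochondrial biogenesis, 7 of 9 were tested, 0 passed and 3 lay above 0. The ETS factor Gabpa was at 2.49, 1.18 and 2.63 RPKM in the controls against 3.17, 3.09 and 2.19 RPKM in the treated tumours. Yy1 was at 7.91, 4.32 and 9.40 RPKM against 11.5, 11.2 and 6.39 RPKM. Both had their lowest value in DMSO replicate 2. Nrf1 was at 1.80, 2.85 and 2.62 RPKM against 2.28, 2.39 and 2.37 RPKM, and the nuclear receptor Esrra at 7.94, 26.7 and 18.4 RPKM against 10.3, 9.28 and 15.0 RPKM, both highest in DMSO replicate 2 and both named after their values were seen. Of the 7 tested regulators, 3 were highest and 3 were lowest in that library. The coactivator Pprc1 was at 6.29, 10.4 and 8.69 RPKM in the controls against 5.83, 5.72 and 8.19 RPKM in the treated tumours, highest in DMSO replicate 2. Differences were 0.39 for Gabpa, 0.42 for Yy1 and -0.33 for Pprc1. Ppargc1a and Ppargc1b, at 0.00403 and 0.0922 RPKM, were too low to be tested.

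Some of these values may hold reads of other genes. Exons of 33 of the 78 genes overlap an exon of another annotated gene, in 28 cases on the other strand, and the use of strand in counting is not given in the sources used here. Among the 45 genes without overlap, 28 differences lay above 0, with a median of 0.060, and 29 were highest in DMSO replicate 2. Of the genes described above, Mrpl9, Mrpl10, Mrpl12, Mrpl14, Mrpl21, Mrpl3, Mrpl33, Mrpl36, Mrpl43, Mrpl44, Mrpl48, Mrpl49, Mrps6, Mrps18b, Mrps18c, Mrps24 and Mrps34, together with Mrpl27 and Mrpl53, have such an overlap. Reads of near-identical copies are uncertain as well, and of the pseudogene rows Mrpl23-ps1 was listed at 4.17 RPKM, Mrpl48-ps at 1.34 RPKM, Mrpl27-ps at 0.873 RPKM and Mrps36-ps2 at 0.00968 RPKM on average.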

How the data were processed

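RNA was sequenced as pairs of 150 bases from 3 DMSO and 3 Vismodegib tumours, grouped by their titles. The authors deposited RPKM values for 23381 gene symbols. Per the submitters' processing notes, the tools were STAR, HISAT2, Partek, SAMtools, cutadapt and bcl2fastq 2.17, and the build was mm10. Their roles, the annotation, the use of strand and the counting of reads or pairs were not given in the sources used here. Members and lists were chosen with earlier results of these data known.

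The 11818 genes whose mean reached 0.5 RPKM were log-transformed as log2(RPKM + 0.5), and limma 3.58.1 (R 4.3.3) was fitted to them (eBayes with a mean-variance trend, group as the only term, two-sided, Benjamini-Hochberg adjustment over all genes tested). Read totals were recovered from the steps of low values in 7115 genes with 1 transcript. With these totals, 83.2% to 84.8% of values up to 20 reads were whole within 0.02 reads. Coordinates, lengths and GC content came from GENCODE M21 (GRCm38), which held all 78 genes, and promoter windows from RefSeq. The fit was tested on simulated data.

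Named genes were those with the 5 highest and 5 lowest differences, non-overlapping groups, the 5 highest and 3 lowest levels, the Mrps18 paralogues, Mrpl12 and Mrps12, and up to 3 genes per related list with the smallest p. Alternatives covered the pseudocount, filter, scaling, variance model, library weights, replicate block, GC content and length trends, and each library left out.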

Additional observations from a re-analysis of the deposited data

How the results depend on the processing

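Under 18 alternative settings, 0 of the 78 mitochondrial ribosomal genes passed an adjusted p of 0.05 by limma; the smallest adjusted p, 0.0569, came with library weights. Division by the RPKM sum, the comparison of library orders and of overlap under other scalings, and the restriction to genes without exon overlap were added after the data were seen. Over all genes, 420 were called with library weights, 1 with the replicate block, and 0 to 19 when 1 library was left out, the 19 without DMSO replicate 1. An unadjusted p under 0.05 by limma was reached by 3 of the 78 with no filter and 19 with library weights. With 1 library left out, 0 to 2 reached it, the 2 without DMSO replicate 1. The share of all genes under that p was not counted in these settings, so these counts have no background to stand beside. With 1 library left out, 33 to 72 differences lay above 0, and the median ran from -0.089 to 0.274, against -0.020 to 0.113 for all genes. The library weights were 0.319, 0.316 and 7.28 on DMSO replicates 1, 2 and 3, so the weighted controls rested mostly on DMSO replicate 3. The median of the 78 genes was then 0.200, against 0.014 for all genes, with 64 above 0. In the related lists, library weights called 1 of 21 assembly factors and 6 of 13 genes of the mitochondrial genome, where 420 of all 11818 genes were called. The median of the other ribosome proteins was 0.369 in this setting. The cause was not tested.

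Of the 22 named genes, 11 kept their sign in all settings. With library weights, the difference was 0.11 for Mrps6, 0.20 for Mrps22 and 0.08 for Mrps12. Mrps21 stood at -0.01 with median-ratio scaling, -0.02 with quantile scaling and -0.05 with GC content and length trends removed, and Mrpl3 at -0.03 in the last. With 1 library left out, the differences ran from -0.62 to 0.07 for Mrpl21, -0.79 to 0.22 for Mrpl16, -0.54 to 0.16 for Mrps6, -0.51 to 0.12 for Mrpl43, -0.19 to 0.33 for Mrpl12, -0.07 to 0.18 for Mrps21, -0.17 to 0.22 for Mrps22, -0.33 to 0.44 for Mrpl3, -0.05 to 0.35 for Mrpl32, -0.30 to 0.03 for Mrps18b and -0.29 to 0.39 for Mrps12. The counts with all treated libraries above or below under each scaling stand in the report.

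The replicate number as a block left the median of the 78 genes at 0.055. Deviations of same-numbered libraries had correlations of 0, 0.04 and -0.30, and not every library correlated best with its own number, so the numbers were not taken as pairs. With 3 libraries a group, the median SE of a difference was 0.291, and a single-gene difference of that size was not detectable.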
